A study of Micropterus salmoides with 45 samples.

Results

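Severe hypoxia was compared with moderate hypoxia in the liver of largemouth bass (Micropterus salmoides) after 8 h, by small RNA sequencing. The severe group (labelled SHG) was held at a dissolved oxygen of 1.2 mg/L, the moderate group (MHG) at 3.0 mg/L, and a control group (CG) at 7.0 mg/L, each within 0.2 mg/L. The comparison takes the 6 libraries labelled with either hypoxia group and 8 h, 3 in each, out of 45 in the series. All fish were 6 months old, kept at 20 °C and fasted, and time was counted from the point at which nitrogen had lowered the oxygen, within 2 h. Each oxygen level had 3 tanks of 30 fish, and livers were frozen after anaesthesia with MS-222. The labels do not link a library to a tank or say whether it holds 1 fish or a pool. The p-values therefore cover spread among libraries, which may be technical. Values are depth-normalised read counts (rpm) of 266 named miRNAs, given here without the species prefix. All of them entered the comparison, and those named below were partly chosen by their results in it. The sample labels were followed throughout, although the design text of the series speaks of another fish and of temperature groups.

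A miRNA is a short RNA cut from a hairpin precursor, whose 2 arms give the 5p and the 3p product. Loaded into an Argonaute protein, it pairs with messenger RNAs and lowers their translation or stability. In vertebrate liver most miRNA comes from hepatocytes, with smaller contributions from endothelium, blood cells, stellate cells and bile duct epithelium. Low oxygen is known to act on some miRNA genes through hypoxia-inducible factor, miR-210 being the best known in mammals and the miR-462 and miR-731 cluster in zebrafish.

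In most sets of 3 deposited values, 1 is the mean of the other 2 and was treated as not measured. Such a mean was present for 222 miRNAs in severe and 197 in moderate hypoxia, and a further 15 and 33 had 1 value repeated in all 3 libraries of the severe and the moderate group. Where 2 values per group are given below, the third library holds their mean. A group listed at 0 in all 3 libraries was not tested. The implied depth was 1573564 to 2227171 reads in severe and 1344990 to 1986097 reads in moderate libraries, so that 1 read is worth 0.449 to 0.636 and 0.504 to 0.744 rpm in the severe and the moderate libraries. The listed miRNAs summed to 572335 ± 8758 rpm in severe hypoxia and 441079 ± 34307 rpm in moderate hypoxia (SD, n = 3 deposited values each, averages included).

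Of 215 tested miRNAs, 24 (11.2%) differed between severe and moderate hypoxia at an adjusted p under 0.05, 19 higher (8.84%) and 5 lower (2.33%) in severe hypoxia. All 24 had deposited values without overlap between the groups, as had 150 of the 215 (69.8%). The log2 differences had a median of 0.32, a shift in the same direction as the larger listed sum of the severe libraries. With each library rescaled to its listed sum the median was -0.03 and 25 (11.6%) were called, 10 higher (4.65%) and 15 lower (6.98%). With scaling by the median of ratios to the mean library, the median was 0.07 and 22 (10.2%) were called, 11 higher and 11 lower. The excess of higher values in severe hypoxia therefore depended on the scaling. In all 3 scalings 15 miRNAs were called in the same direction, 10 higher and 5 lower, and these are described first. The count of 24 dropped to 12 without severe library 1 (208 tested), to 13 without severe library 2 and to 15 without moderate library 2, and 5 were called when standard errors were doubled.

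**Figure D1:**
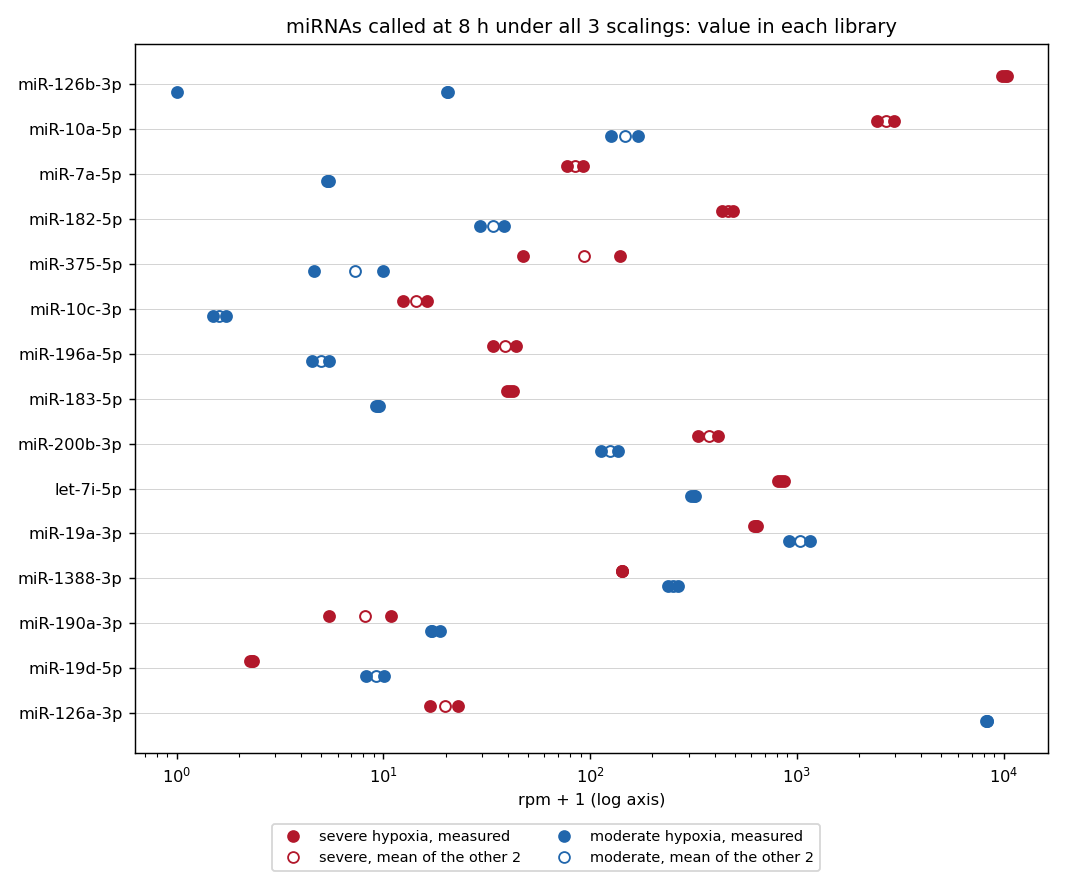
Deposited value plus 1 rpm (log axis) in each of the 3 severe libraries (red, upper line) and the 3 moderate libraries (blue, lower line) for the 15 miRNAs called under all 3 scalings, with filled points for measured values and open points for means of the other 2. No severe library overlaps a moderate one for any of the 15, and miR-126b-3p and miR-126a-3p lie at opposite ends in the 2 groups.

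Among the rises were miRNAs of the Hox gene clusters. miR-10a-5p, whose gene lies inside a Hox cluster in vertebrates, was measured at 2451 and 2960 rpm in severe hypoxia, against 169.5 and 124.9 rpm in moderate hypoxia. The severe values were all above 2400 rpm and no moderate value reached 170 rpm, an 18.4-fold difference of means (log2 4.20, SE 0.67, adjusted p = 0.000105; 3.82 after rescaling to the listed sum). Control livers at 8 h averaged 191 rpm.

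miR-196a-5p, which also lies in Hox clusters and represses Hox messenger RNAs, had 42.7 and 33.1 rpm in severe livers and 4.46 and 3.53 rpm in moderate livers (log2 2.96, SE 0.35, adjusted p = 6.08e-06). The 2 groups did not overlap, and control livers averaged 3.85 rpm, close to the moderate level. miR-10c-3p, the minor arm of a further miR-10 precursor, had 15.3 and 11.4 rpm against 0.730 and 0.500 rpm (severe against moderate; log2 3.14, SE 0.41, adjusted p = 0.000662). The moderate values amount to 1 read each at the implied depth, and counting error alone leaves a ratio of 23.0 with a 95% exact interval of 6.06 to 195.

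Of the 7 tested miRNAs of the miR-10 and miR-196 families, 3 were higher and 0 lower, beside 8.84% higher over all tested miRNAs, and the list's median log2 difference was 0.55 beside 0.32. The abundant arm miR-10c-5p had 6662 and 5982 rpm in severe and 4684 and 4980 rpm in moderate livers (log2 0.39, adjusted p = 0.102; -0.02 after rescaling). miR-10b-5p averaged 950 rpm in severe and 856 rpm in moderate livers (adjusted p = 0.704). miR-196b-5p averaged 4.92 rpm in severe and 3.08 rpm in moderate livers (adjusted p = 0.397). The differences were thus in single members of these families, and the others did not pass the test.

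The miR-183 cluster had both of its tested members higher, beside 8.84% higher over all tested miRNAs. It is transcribed as 1 unit and is strongly expressed in sensory organs of vertebrates. miR-182-5p had 433 and 490 rpm in severe hypoxia, against 37.2 and 28.3 rpm in moderate hypoxia (14.1-fold; log2 3.79, SE 0.30, adjusted p = 7.01e-09). miR-183-5p had 38.6 and 41.3 rpm in severe and 8.18 and 8.56 rpm in moderate livers (4.78-fold; log2 2.13, SE 0.30, adjusted p = 2.11e-05). Control livers at 8 h averaged 48.2 rpm for miR-182-5p and 7.82 rpm for miR-183-5p, near the moderate levels. The third member, miR-96-5p, averaged 1.05 rpm in severe and 0.735 rpm in moderate livers and was below the abundance tested.

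Of the miRNAs known from pancreas, some were higher. miR-7a-5p, a miRNA of endocrine cells and neurons, had 75.9 and 90.9 rpm in severe livers and 4.46 and 4.36 rpm in moderate livers (18.9-fold; log2 3.96, SE 0.38, adjusted p = 1.87e-07). Every severe value lay far above every moderate one, and control livers averaged 4.85 rpm. The other arm, miR-7a-3p, went the opposite way without a test, at 0 in severe and a mean of 5.04 rpm in moderate libraries. miR-375-5p, from the precursor of the islet miRNA miR-375, had 138 and 46.3 rpm in severe and 8.92 and 3.63 rpm in moderate livers (log2 3.58, SE 0.82, adjusted p = 0.0136). The severe values differ from each other by more than 2-fold, and the call ended without severe library 1 (log2 2.80, adjusted p = 0.103) or moderate library 2 (log2 3.03, adjusted p = 0.107). The arm that is dominant in other vertebrates, miR-375-3p, was listed at 33.1 rpm in all 3 severe libraries and at 0 in all 3 moderate ones, without a test.

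The exocrine marker miR-216a-5p had 17.5 and 13.1 rpm in severe and 4.36 and 6.04 rpm in moderate livers (log2 1.39, SE 0.45, adjusted p = 0.0485), and was not called after rescaling (log2 1.04, adjusted p = 0.180). The other exocrine markers were not called, miR-217-5p with means of 135 rpm in severe and 97.1 rpm in moderate livers (adjusted p = 0.390) and miR-216b-5p with 90.4 and 54.8 rpm in severe and moderate livers (adjusted p = 0.171). In all, 3 of 5 tested pancreas markers were higher and 0 lower as deposited (median log2 1.39), beside 8.84% higher over all tested miRNAs, and 2 were higher after rescaling, beside 4.65%. The 7 listed pancreas markers summed to 404 to 490 rpm in severe, 96.5 to 248 rpm in moderate and 185 to 242 rpm in control libraries at 8 h. A larger share of cells that carry these miRNAs and more of the miRNA per cell cannot be told apart in whole tissue, here or for any other marker below, and the part of the pancreas markers in the other differences was not tested.

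Among epithelial miRNAs, miR-200b-3p, which maintains the epithelial state by repressing Zeb factors in mammals, had 414 and 333 rpm in severe livers and 112 and 135 rpm in moderate livers. The groups did not overlap (3.03-fold; log2 1.59, SE 0.24, adjusted p = 5.94e-05; 1.19 after rescaling), and control livers averaged 205.5 rpm. Its relatives were not called: miR-200a-3p averaged 1394 rpm in severe and 818 rpm in moderate livers (adjusted p = 0.126) and miR-141-3p averaged 243 rpm in severe and 115 rpm in moderate livers (adjusted p = 0.0925). Of 10 tested epithelial markers 1 was higher and 0 lower (median log2 0.24), a share near the 8.84% higher over all tested miRNAs. As deposited the listed epithelial markers summed to 2296 to 2385 rpm in severe, 1308 to 1391 rpm in moderate and 2083 to 2314 rpm in control libraries at 8 h. Of these markers, miR-200c-3p was at 0 in both hypoxia groups. The part of the epithelial markers in the rises of the miR-183 cluster was not tested.

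The let-7 family represses genes of growth and stem cell identity. let-7i-5p had 867 and 806 rpm in severe hypoxia, against 308, 321 and 317 rpm in moderate hypoxia, where all 3 values were measured. The severe livers were 2.65-fold higher (log2 1.40, SE 0.25, adjusted p = 0.000303; 1.01 and adjusted p = 0.00653 after rescaling), and control livers averaged 485 rpm. The most abundant member, let-7a-5p, had 40875 and 32259 rpm in severe and 24215 and 22783 rpm in moderate livers (log2 0.63, adjusted p = 0.0421). It was not called after rescaling (log2 0.23, adjusted p = 0.567). Of 17 tested let-7 members 2 were higher and 0 lower as deposited, a share near the 8.84% of all tested miRNAs, and 1 was higher and 1 lower after rescaling, with a median log2 difference of 0.38 as deposited and 0.048 after rescaling.

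**Figure D2:**
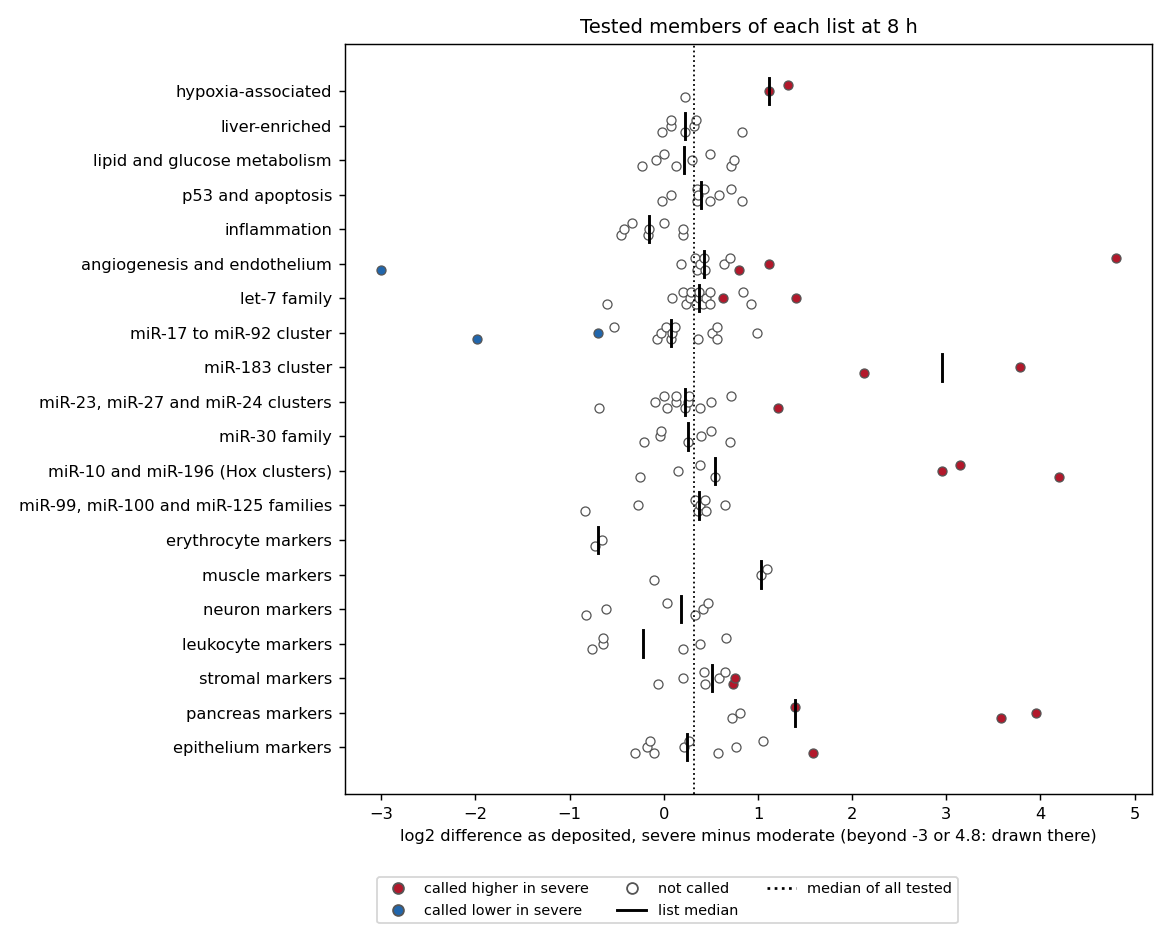
Log2 difference between severe and moderate hypoxia at 8 h, as deposited, for each tested member of 20 lists (1 point per miRNA, red for called higher, blue for called lower, white for not called), with a bar at the list median and a dotted line at 0.32, the median of all tested miRNAs. The miR-183 cluster and the pancreas markers lie to the right of the dotted line, while the liver-enriched miRNAs lie around it and none of them was called.

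Of the 5 miRNAs that fell, 2 carry the name miR-19. miR-19a-3p, of the growth-promoting miR-17 to miR-92 cluster, had 643 and 622 rpm in severe livers and 917 and 1151 rpm in moderate livers (log2 -0.70, SE 0.22, adjusted p = 0.0421). After rescaling the difference was -1.10 (adjusted p = 0.00308), but as deposited the call ended without severe library 2 or 3 or moderate library 2 (log2 -0.72, -0.67 and -0.53, adjusted p = 0.125 to 0.252), and with the replicate number as a block the adjusted p was 0.0701. miR-19d-5p, a minor arm, had 1.35 and 1.27 rpm in severe and 7.26 and 9.07 rpm in moderate livers (log2 -1.98, SE 0.36, adjusted p = 0.000399). The severe values correspond to 3 and 2 reads and the moderate values to 10 and 18 reads, so counting error alone leaves a severe over moderate ratio of 0.158 with a 95% exact interval of 0.0476 to 0.414. Control livers averaged 16.6 rpm.

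Of 14 tested members of the miR-17 to miR-92 cluster families, 2 were lower and 0 higher (median log2 0.08), beside 2.33% lower over all tested miRNAs. After rescaling miR-19b-3p joined them, making 3 lower, beside 6.98%. miR-19b-3p had 1283 rpm in severe and 1850 rpm in moderate livers (log2 -0.95, adjusted p = 0.00146 after rescaling, and -0.52 and 0.0925 as deposited). The other abundant member, miR-92a-3p, averaged 18596 rpm in severe and 13709 rpm in moderate livers (log2 0.51, adjusted p = 0.260). Other miR-19 members were not called: log2 differences were 0.12 for miR-19c-3p, 0.09 for miR-19d-3p and 0.07 for miR-19b-5p as deposited, and -0.28, -0.30 and -0.17 after rescaling.

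miR-190a-3p had 9.88 and 4.45 rpm in severe livers, against 17.8, 16.0 and 16.1 rpm in moderate livers (log2 -1.19, SE 0.25, adjusted p = 0.00219; -1.56 after rescaling). Without severe library 2 the difference was -0.70 and no longer called (adjusted p = 0.130). miR-1388-3p had 141 and 142 rpm in severe and 236 and 264 rpm in moderate livers (log2 -0.81, SE 0.21, adjusted p = 0.0164, and -1.12 after rescaling). Its call ended without severe library 1 or 2 or moderate library 3 (adjusted p = 0.0692 to 0.0816). Control livers averaged 22.3 rpm for miR-190a-3p and 237 rpm for miR-1388-3p.

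The 2 differences of greatest size were in the 3p arms of miR-126, a miRNA of endothelial cells that promotes growth of blood vessels. miR-126b-3p had 9869 and 10382 rpm in severe livers and 19.3, 0 and 19.6 rpm in moderate livers (log2 10.40, SE 0.81, adjusted p = 7.01e-09). miR-126a-3p showed the reverse, with 15.9 and 21.9 rpm in severe livers and 8321 and 8263 rpm in moderate livers (log2 -8.72, SE 0.34, adjusted p = 4.46e-12). The sum of both was 9888 to 10403 rpm in severe and 8263 to 8340 rpm in moderate libraries, which is 1.76% to 1.79% of the listed sum in severe and 1.77% to 2.05% in moderate libraries.

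As a share of the listed sum the 2 groups thus overlap once the 3p arms are added together, and in control livers at 8 h both arms were abundant, with means of 13420 rpm for miR-126a-3p and 17892 rpm for miR-126b-3p. The 5p arms were not called: miR-126a-5p had 2803 and 4973 rpm in severe and 3382 and 2408 rpm in moderate livers (adjusted p = 0.530), and miR-126b-5p had 4851 and 5007 rpm in severe and 3352 and 4460 rpm in moderate livers (adjusted p = 0.555). In the other control groups after 0 h, which had no hypoxia, miR-126b-3p was also near 0 beside an abundant miR-126a-3p. It had 7.14 to 20.6 rpm at 4 h, 65.3 rpm at 12 h and 5.51 to 7.24 rpm at 24 h, where miR-126a-3p had 10569 to 12154, 9110 to 10536 and 3342 to 3811 rpm. A near absence of 1 of the 2 names was thus also seen in control livers. Whether reads of the 3p products are shared between the 2 names was not tested.

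A further 9 miRNAs were higher as deposited but not called under every other scaling. Among them were miR-210-5p and miR-462-5p of the miRNAs known from hypoxia, but not miR-210-3p. miR-210-5p, from the precursor induced by hypoxia-inducible factor, had 164 and 187 rpm in severe hypoxia, against 89.97 and 53.7 rpm in moderate hypoxia (log2 1.32, SE 0.35, adjusted p = 0.0174). It was called with the median of ratios (log2 1.06, adjusted p = 0.0402) but not after rescaling to the listed sum (log2 0.94, adjusted p = 0.0681), and control livers averaged 204 rpm, above both hypoxia groups as deposited and between them relative to the listed sum. The other arm, miR-210-3p, had 177 and 122 rpm in severe and 107 and 146 rpm in moderate livers, which overlap (log2 0.23, SE 0.34, adjusted p = 0.704).

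miR-462-5p had 4721 and 3969 rpm in severe livers and 1674 and 2389 rpm in moderate livers (log2 1.11, SE 0.35, adjusted p = 0.0421; 0.71 and adjusted p = 0.209 after rescaling). Control livers averaged 8439 rpm, higher than either hypoxia group. Its cluster partner miR-731-5p was listed at 268 rpm in all 3 severe libraries and at 0 in all moderate libraries and all control libraries at 8 h. Of the 3 tested miRNAs known from hypoxia 2 were higher and 0 lower as deposited (median log2 1.11), beside 8.84% higher over all tested miRNAs. After rescaling to the listed sum 0 of the 3 were called, beside 11.6%.

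miR-222a-3p, which acts in vascular cells, had 6451 and 7070 rpm in severe and 3388 and 2867 rpm in moderate livers (log2 1.12, SE 0.34, adjusted p = 0.0421; 0.71 and adjusted p = 0.244 after rescaling). Control livers averaged 2429 rpm, so that severe livers were the highest of the 3. miR-199-5p and miR-214-5p, made from 1 transcript of mesenchymal cells in mammals, were higher by log2 0.73 and 0.75 (adjusted p = 0.0342 and 0.0421), and by 0.35 and 0.37 after rescaling (adjusted p = 0.417 and 0.310). Across the list of angiogenesis and endothelium, which holds the miR-126 arms, 3 of 12 tested members were higher and 1 was lower as deposited (median log2 0.43). Over all tested miRNAs 8.84% were higher and 2.33% lower. After rescaling 1 member was higher and 1 lower, beside 4.65% and 6.98% over all tested miRNAs. miR-199-5p and miR-214-5p were the 2 called among 8 tested stromal markers as deposited (median log2 0.51), beside 8.84% higher over all tested miRNAs. After rescaling 0 were called (median log2 0.16). As deposited the listed stromal markers summed to 37438 to 38857 rpm in severe, 29682 to 30509 rpm in moderate and 40657 to 45826 rpm in control libraries at 8 h. The sums of all listed miRNAs also differed, with means of 572335 rpm in severe and 441079 rpm in moderate libraries. miR-27c-5p (log2 1.21, adjusted p = 0.0271) was the only 1 of 13 tested members of the miR-23, miR-24 and miR-27 families called higher, and 0 were lower. That share is near the 8.84% higher over all tested miRNAs. miR-130c-3p (log2 0.80, adjusted p = 0.0460) completes the 9.

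Each of these 9 calls ended when single libraries with a measured value were left out, at log2 differences that remained positive, between 0.46 and 1.59. For miR-130c-3p, miR-199-5p and miR-214-5p this held for severe library 1 or 3 or moderate library 1 or 2, and for miR-222a-3p and miR-462-5p for severe 2 or 3 or moderate 1 or 2. For miR-216a-5p it was severe 1 or 3 or moderate 2 or 3, for let-7a-5p severe 2 or moderate 1 or 2, for miR-210-5p severe 1 or 2 or moderate 2, and for miR-27c-5p severe 1 or 2 or moderate 1. By contrast, 11 of the 15 miRNAs called in all scalings kept their call without any single library, the exceptions being miR-375-5p, miR-1388-3p, miR-190a-3p and miR-19a-3p. With standard errors doubled the calls of miR-126a-3p, miR-126b-3p, miR-182-5p, miR-7a-5p and miR-196a-5p remained.

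**Figure D3:**
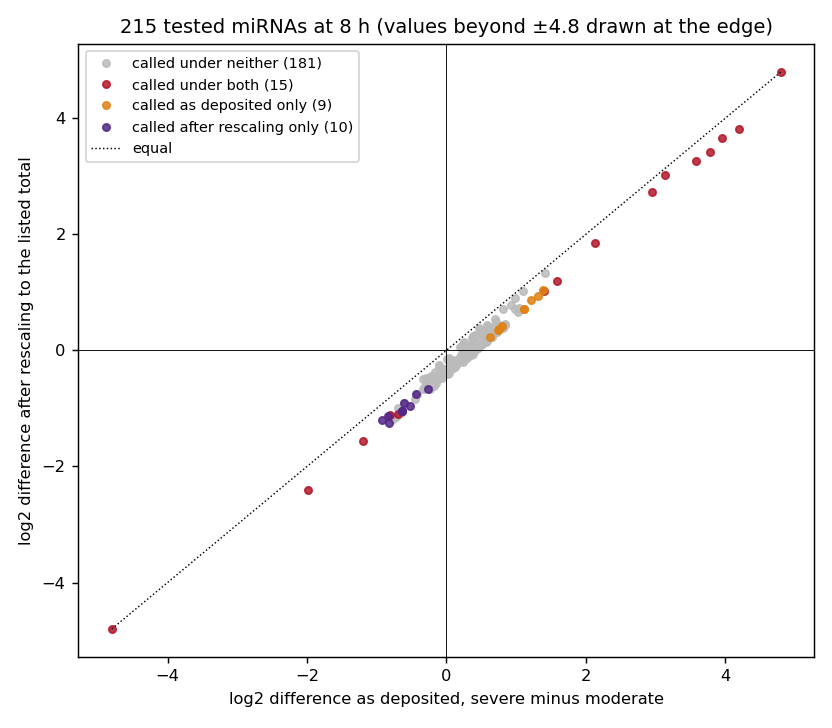
Log2 difference between severe and moderate hypoxia at 8 h after rescaling to the listed sum (vertical axis) against the same as deposited (horizontal axis), 1 point per tested miRNA, coloured by the scaling under which it was called, with a dotted line of equality. The points run below the line, with medians of 0.32 as deposited and -0.03 after rescaling; 15 were called under both, 9 as deposited only and 10 after rescaling only.

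The 10 miRNAs called after rescaling only were all lower in severe hypoxia, and are named here after their values were seen. miR-142a-3p, a miRNA of blood cells, averaged 69.9 rpm in severe and 109 rpm in moderate livers (log2 -0.64, adjusted p = 0.0576; -1.04 and adjusted p = 0.000734 after rescaling). miR-142b-3p has the same value in each of the 6 libraries and is not a second measurement. The remaining members were let-7g-3p, miR-19b-3p, miR-100-3p, miR-140-5p, miR-153b-3p, miR-181b-5p, miR-212-5p and miR-2188-3p, with differences of -1.25 to -0.66 after rescaling.

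Of 6 tested leukocyte markers 0 were called as deposited (2 at an unadjusted p under 0.05, median log2 -0.22). After rescaling 2 were lower, miR-142a-3p and miR-142b-3p with their identical values, beside 6.98% lower over all tested miRNAs. The 5p arms had positive differences as deposited and were not called, miR-142a-5p at log2 0.66 (adjusted p = 0.229) and miR-142b-5p at 0.39 (adjusted p = 0.536). miR-142a-5p averaged 1816 rpm over the 6 libraries, beside 89.5 rpm for miR-142a-3p. As deposited the listed leukocyte markers summed to 2044 to 2793 rpm in severe, 1636 to 1707 rpm in moderate and 2766 to 2843 rpm in control libraries at 8 h. miR-155-5p, of activated immune cells, averaged 17.6 rpm in severe and 15.1 rpm in moderate livers (adjusted p = 0.824). The erythrocyte miRNAs miR-144-3p, with means of 216 rpm in severe and 384 rpm in moderate livers (adjusted p = 0.260), and miR-144-5p, with 277 rpm in severe and 441 rpm in moderate livers (adjusted p = 0.362), were not called, and neither had an unadjusted p under 0.05. These arms of 1 precursor summed to 443 to 545 rpm in severe and 621 to 1028 rpm in moderate libraries, against 3128 to 5820 rpm in control libraries. The part of blood content in other differences was not tested.

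The miRNAs that define liver did not pass the test in the fit of all 15 groups of the series. miR-122-5p, the main miRNA of hepatocytes, had 5884 and 6489 rpm in severe and 6568 and 4244 rpm in moderate livers (log2 0.23, SE 0.30, adjusted p = 0.667), and miR-122-3p had 126 and 124 rpm in severe and 113 and 86.4 rpm in moderate livers (log2 0.34, adjusted p = 0.441). For both arms the sign turned after rescaling to the listed sum (log2 -0.10 and -0.06). miR-192-5p, abundant in liver and gut, had 59509 and 70352 rpm in severe and 40015 and 33288 rpm in moderate livers, without overlap but not called (log2 0.83, SE 0.62, adjusted p = 0.402). With the 6 libraries fitted alone its spread was smaller and it was called (limma, SE 0.21, adjusted p = 0.0416). Of 7 tested liver-enriched miRNAs limma called 0 in the fit of all groups, as deposited or after rescaling. In that fit 0 had an unadjusted p under 0.05 as deposited.

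The 5 most abundant miRNAs, miR-26a-5p, miR-192-5p, miR-181a-5p, let-7a-5p and miR-22a-3p, held 45.5% to 46.3% of the listed sum in severe and 40.7% to 44.9% in moderate libraries. miR-26a-5p had 72173 and 79250 rpm in severe and 68055 and 51854 rpm in moderate livers (adjusted p = 0.262). miR-181a-5p had 54599 and 50341 rpm in severe and 56750 and 35647 rpm in moderate livers, which overlap (adjusted p = 0.530). miR-22a-3p had 33298 and 33719 rpm in severe and 20811 and 24018 rpm in moderate livers (adjusted p = 0.169). Of the 5, let-7a-5p alone was called in the fit of all groups, and that as deposited only. With the 6 libraries fitted alone, let-7a-5p was not called (limma, adjusted p = 0.0696) and miR-192-5p was (adjusted p = 0.0416).

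In several other lists limma called 0 members as deposited. The 8 tested miRNAs of lipid and glucose metabolism had a median log2 difference of 0.21, and miR-29a-3p had means of 549 rpm in both groups. The 10 of p53 and apoptosis had a median of 0.40, the 8 of inflammation -0.16 and the 7 of the miR-30 family 0.26, beside 0.32 for all tested miRNAs. An unadjusted p under 0.05 was reached by 0 members of the metabolism, p53 and inflammation lists and by 2 of the miR-30 family. miR-21-5p, a miRNA of inflammation and fibrosis, averaged 13886 rpm in severe and 17650 rpm in moderate livers (adjusted p = 0.380; 0.0601 after rescaling). No member of the miR-99, miR-100 and miR-125 families was called as deposited (8 tested, 2 at an unadjusted p under 0.05, median 0.38). Nor was any of 6 tested neuron markers (1 at an unadjusted p under 0.05, median 0.18) or 3 tested muscle markers (1 at an unadjusted p under 0.05, median 1.03). Of the muscle markers miR-133a-3p averaged 68.6 rpm in severe and 33.9 rpm in moderate livers (adjusted p = 0.0779). After rescaling to the listed sum 1 of the 8 (miR-100-3p) and 1 of the 6 neuron markers (miR-153b-3p) were lower, beside 6.98% over all tested miRNAs. The metabolism, p53, inflammation, miR-30 and muscle lists had 0 called after rescaling.

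The 2 arms of a precursor were compared next. Both arms were tested for 68 precursor names, and 15 of these had exactly 1 arm called and 0 had both in the fit of all groups. With the 6 libraries fitted alone, limma called both arms of let-7i (adjusted p = 0.000227 for 5p and 0.0248 for 3p). It also called both arms of miR-222a (adjusted p = 0.0287 for 5p and 0.00475 for 3p), and both arms of no other precursor among the 15. The signs of the 2 arms matched in 44 of 68 (64.7%). Over all 215 tested miRNAs 74.4% of the differences were positive as deposited, so unrelated miRNAs would often match in sign too. The matches were not tested against that share. For let-7a, let-7i and miR-222a the arms pointed the same way. As deposited this also held for miR-10c, miR-126b, miR-130c, miR-199, miR-200b, miR-210, miR-214 and miR-27c. The signs were opposite as deposited for miR-126a, miR-190a, miR-19d and miR-1388. After rescaling to the listed sum the arms of these precursors matched in sign, with miR-126a-5p at log2 -0.016. let-7a-3p was at log2 0.84 (adjusted p = 0.0576) and miR-222a-5p at 0.70 (adjusted p = 0.0620), each just outside the threshold, and let-7i-3p had 1.80 and 2.37 rpm in severe and 0.730 and 0.500 rpm in moderate livers (log2 0.93, adjusted p = 0.150). For miR-200b, miR-190a, miR-19d and miR-1388 the other arm was close to 0, with log2 differences of 0.27 (miR-200b-5p), 0.04 (miR-190a-5p), 0.09 (miR-19d-3p) and 0.04 (miR-1388-5p) as deposited, of which the last 3 turned negative after rescaling (-0.38, -0.30 and -0.33). The difference between arms was not itself tested.

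**Figure D4:**
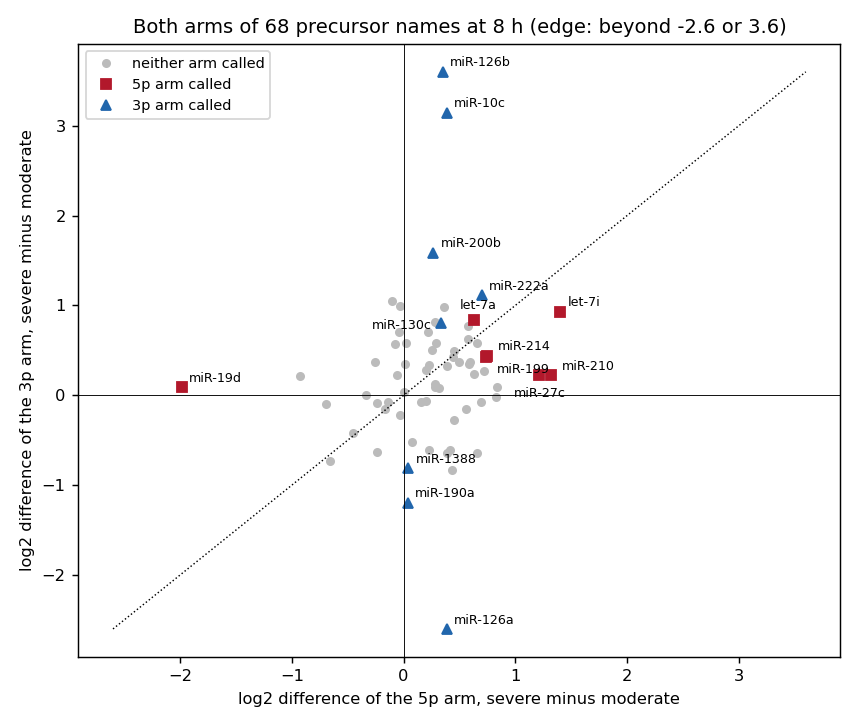
Log2 difference between severe and moderate hypoxia at 8 h of the 3p arm (vertical axis) against that of the 5p arm (horizontal axis) for the 68 precursor names with both arms tested, with red squares where the 5p arm was called and blue triangles where the 3p arm was. None of the 15 precursors with a called arm has both arms called in the fit of all groups, which is the one shown. The points of let-7a, let-7i and miR-222a lie near the diagonal, while miR-10c, miR-200b and miR-190a lie near the vertical axis.

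Some miRNAs were listed at 0 in all 3 libraries of 1 group only, 17 in all, and 6 of these reached 10 rpm in the other group. In severe but not moderate hypoxia these were miR-221-5p at 5104 rpm, miR-731-5p at 268 rpm, miR-15a-5p at 225 rpm and miR-375-3p at 33.1 rpm. In moderate but not severe hypoxia they were miR-181c-5p at 149 rpm and miR-137-3p at 16.6 rpm. In each of these 6 the group that is not at 0 has 1 value repeated in its 3 libraries, so none has a spread or a test. miR-221-3p, the other arm of the first, had 2087 and 2656 rpm in severe and 1452 and 1584 rpm in moderate livers (adjusted p = 0.371).

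Control livers at 8 h were set beside both hypoxia groups as a description. Of the 10 miRNAs higher in severe hypoxia under all scalings, the control mean was between the 2 hypoxia means for 7, below both for 2 and above both for 1 as deposited. Relative to the listed sum it was below both for 8 of the 10, between for 1 and above both for 1. For the 5 lower miRNAs control was above both for 4 and between for 1 as deposited, and above both for 1 and between for 4 relative to the listed sum. A wide gap between the hypoxia means, by which these miRNAs were chosen, makes a control mean between them more likely. Over all 215 tested miRNAs control was above both for 154, between for 42 and below both for 19 as deposited. Relative to the listed sum it was above both for 44, between for 52 and below both for 119. The listed sum of control libraries was 795919 ± 46026 rpm (SD, n = 3), larger than in either hypoxia group. The order of the 3 oxygen levels therefore depends on the scaling.

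To see whether the differences belonged to 8 h, the severe minus moderate difference at 8 h was tested against its mean at 0, 4, 12 and 24 h in the same fit. Of 194 miRNAs with a value in all 10 groups, 20 (10.3%) differed, among them 12 of the 22 called at 8 h that could be tested. The 8 h values enter both tests, so miRNAs called at 8 h were more likely to be among the 20 by construction. miR-10a-5p was at log2 4.20 at 8 h and at a mean of -1.36 over the other times (difference 5.56, SE 0.75, adjusted p = 1.13e-05). Its difference was 0.84 at 0 h, -1.33 at 4 h, -2.27 at 12 h and -2.69 at 24 h, so that severe livers held less than moderate ones at 3 of the 4 other times.

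miR-182-5p was at 0.44, 0.33, 3.79, -0.82 and -1.02 log2 at 0, 4, 8, 12 and 24 h (difference from the other times 4.05, SE 0.34, adjusted p = 1.63e-08). miR-7a-5p was at -0.33, 0.27, 3.96, -0.16 and -1.45 (4.38, SE 0.43, adjusted p = 2.45e-07), and miR-196a-5p at -0.50, 0.11, 2.96, 0.29 and -2.15 (3.52, SE 0.41, adjusted p = 3.15e-06). In each of the 3 the value at 8 h was far above all others. By contrast miR-210-5p did not differ beyond the error, with 1.32 at 8 h and a mean of 1.13 at the other times (adjusted p = 0.785), nor did miR-462-5p, with 1.11 at 8 h and a mean of 0.15 (adjusted p = 0.125).

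**Figure D5:**
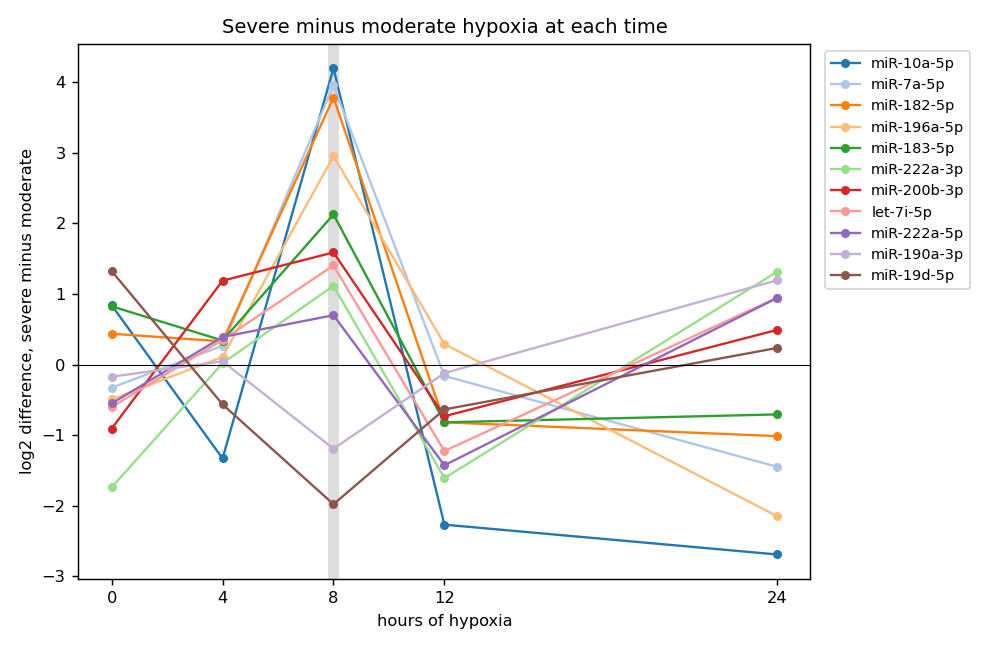
Log2 difference between severe and moderate hypoxia at 0, 4, 8, 12 and 24 h for 11 named miRNAs whose difference at 8 h differed from its mean at the other 4 times (the miR-126 arms are left out, being off the scale), with 8 h shaded. miR-10a-5p, miR-7a-5p, miR-182-5p and miR-196a-5p peak at 8 h between 2.96 and 4.20 and are at or below 0.84 at every other time.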

How the data were processed

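Small RNA of 15 to 35 nt was sequenced on an Illumina instrument, per the labels' protocols. The authors deposited 1 value per miRNA and library, taken here as rpm from the values themselves; no source used here gives the trimming, alignment or genome build, or the denominator of rpm. Low measured values (12 rpm or less) were whole multiples of 1 step per library within 0.006 rpm in 83.3% to 100% of cases in the 6 libraries, and 0% to 21.7% of the averaged values were, so the inverse of the step was taken as the implied depth, and no count test was run.

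A value within 0.0101 rpm or 0.1% of the mean of the other 2 in its group was set to missing, 1 of 3 identical values was kept, and a group at 0 throughout was left out. For the 228 miRNAs averaging 1 rpm or more over 45 libraries, log2(rpm + 1) was fitted on 15 groups in 1 linear model per miRNA with limma's variance moderation and trend (R 4.3.3, limma 3.58.1), checked against limma's own functions and on simulated data. Tests were two-sided with Benjamini-Hochberg adjustment. Log2 differences understate those of low miRNAs. The rule by which values were averaged is not given, so p-values may be too small.

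The rule for naming took called miRNAs whose deposited values do not overlap, at a mean of at least 10 rpm (12 largest rises and falls), the miR-210, miR-462, miR-731 and miR-122 arms, the 5 most abundant, up to 4 called members per list, the other arm of each, and those at 0 in 1 group. List members named without a call (such as miR-10b-5p, miR-21-5p, miR-29a-3p, miR-92a-3p and miR-133a-3p) and those called after rescaling only fall outside that rule and were chosen after their values were seen. The comparison, the 20 lists and the rule were chosen with earlier results of these data known. Alternatives were 2 other scalings, 2 pseudocounts, 2 filters, other fits and each library left out.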

Additional observations from a re-analysis of the deposited data

Results flagged for a closer look

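For 13 of the miRNAs named, the severe minus moderate difference at 8 h differed from its mean at 0, 4, 12 and 24 h (limma, adjusted p under 0.05). Most of them were named for their difference at 8 h, which enters this test as well. On the log2 scale the difference between 8 h and the other times was 10.45 for miR-126b-3p, 5.56 for miR-10a-5p, 4.38 for miR-7a-5p, 4.05 for miR-182-5p and 3.52 for miR-196a-5p. It was 2.22 for miR-183-5p, 1.62 for miR-222a-3p, 1.58 for miR-200b-3p, 1.54 for let-7i-5p and 0.86 for miR-222a-5p. On the lower side it was -1.43 for miR-190a-3p, -2.07 for miR-19d-5p and -11.28 for miR-126a-3p.

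After rescaling to the listed sum miR-222a-5p was no longer past the threshold (0.65, adjusted p = 0.0927), and the other 12 were. For all 13 the differences at the other 4 times had both signs, so their mean is no constant level. Examples are miR-222a-3p, which had -1.74 at 0 h, 0.02 at 4 h, -1.61 at 12 h and 1.32 at 24 h, and miR-200b-3p, with -0.91, 1.19, -0.73 and 0.49 at 0, 4, 12 and 24 h. miR-190a-3p had 1.20 at 24 h and miR-19d-5p 1.33 at 0 h. For miR-126a-3p the mean holds a difference of 9.08 at 24 h, where severe libraries held 6519 to 7524 rpm and moderate libraries 11.9 rpm.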

How the results depend on the processing

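Counting all 3 deposited values gave 111 called at 8 h and 77 for the difference from other times, against 24 and 20, because averages then count as observations. Doubled standard errors left 5 and 6. Leaving out single libraries gave 12 to 22 and 13 to 16; with 1 value left in a group its spread was assumed to be that of the other groups, and 8 of 50 lost calls had an identical log2 difference because the library held no measured value. The 6 libraries alone gave 30 and allow no test against other times, and groups kept at 0 gave 35 and 27. No paired design is given: deviations of same-numbered libraries correlated at 0.10, -0.07 and 0.02, not every library correlated best with its own number, and the replicate block gave 20 and 16 calls. No called value changed sign (97 of 428 lost the call). Among values not called, scaling to the listed sum turned miR-10c-5p (-0.017), miR-122-3p (-0.061), miR-122-5p (-0.10), miR-126a-5p (-0.016), miR-130c-5p (-0.0035), miR-1388-5p (-0.33), miR-181a-5p (-0.16), miR-190a-5p (-0.38), miR-19d-3p (-0.30), miR-210-3p (-0.19), miR-22a-5p (-0.41), miR-26a-5p (-0.041) and miR-27c-3p (-0.15) negative. The median of ratios did so for miR-122-5p (-0.033), miR-1388-5p (-0.21), miR-181a-5p (-0.038), miR-190a-5p (-0.26), miR-19d-3p (-0.20), miR-210-3p (-0.044), miR-22a-5p (-0.26) and miR-27c-3p (-0.061). Single libraries moved the sign of miR-122-5p (-0.088 to 0.54), miR-126a-5p (-0.026 to 0.80), miR-130c-5p (-0.12 to 0.79), miR-1388-5p (-0.037 to 0.12), miR-181a-5p (-0.11 to 0.56), miR-190a-5p (-0.10 to 0.18), miR-192-3p (-0.13 to 0.088), miR-19d-3p (-0.12 to 0.30), miR-210-3p (-0.038 to 0.49) and miR-22a-5p (-0.36 to 0.40). The cause was not tested beyond the scaling itself. Depth limits values near 1 read, such as miR-10c-3p in moderate hypoxia.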
